A study of Mus musculus with 211 samples.

Results

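The proteasome genes of single GFP-positive cells from the adult mouse cochlea are described here. They were taken as the protein-coding genes whose symbol begins with Psm, then one letter from a to g and a digit, which gave 50 of the 48709 genes in the deposited table. Of these, 49 encode subunits, regulators or assembly factors of the proteasome. The remaining one, *Psmc3ip*, matches the naming rule alone and encodes a cofactor of meiotic recombination. The cells came from CD1 mice carrying the Lfng-EGFP transgene, a bacterial artificial chromosome in which the *Lfng* promoter drives GFP, at postnatal day 60 (P60) or postnatal day 120 (P120). All mice carried the transgene, none was treated, and there was no group without it. Cells of pooled cochleae were dissociated with trypsin, sorted for GFP, captured on Fluidigm C1 chips and made into full-length cDNA libraries without molecular identifiers.

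The table holds cells of 8 captures at P60 and 4 at P120. Only cells with at least 50000 reads on genes were used, in captures with at least 3 such cells, which left 161 cells from 10 captures: 77 cells from 6 captures at P60 and 84 from 4 at P120. Reads on genes in these cells ranged from 64947 to 5361476, with a median of 1088476. No cells had identical counts. The capture, a pool of several mice, was the replicate. The P60 captures 9c, 19c, 20c and 21c were sequenced in one run, and the P60 captures 31 and 40 are grouped here in another with all 4 P120 captures. Within that group, the paper lists captures 28, 31 and 32 in a further sequencing lane that 36, 38 and 40 did not have. The labels call the cells adult cochlear supporting cells (SCs), but at least 3 genes of a 10-gene leukocyte list had 10 or more reads in 158 of the 161 cells, and the same held for a 12-gene neutrophil list. For a 15-gene SC list this was so in 14 cells, with *Hes5* at 0, and for the hair cell and endothelial lists in 0 cells. The SC list held 0.00606 to 1.46% of the reads of a capture at P60, highest in 21c, and 0.00765 to 0.0227% at P120. Of the leukocyte list, the authors also localized *Lcp1* RNA to SCs by in situ hybridization on cochlear sections. By antibody staining they found its protein mainly in pillar cells, a type of SC. For *Cd52* and *Fcer1g* of the same list they used digital PCR on sorted GFP-positive cells. With labels and marker reads at odds, the cells are called GFP-positive cells below.

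The proteasome degrades proteins that carry ubiquitin chains. Its barrel-shaped 20S core is built of rings of alpha subunits (*Psma* genes) around rings of beta subunits (*Psmb* genes), and a 19S cap of ATPases (*Psmc*) and other subunits (*Psmd*) recognizes, unfolds and feeds in the substrate. The cutting sites of the constitutive core are encoded by *Psmb5*, *Psmb6* and *Psmb7*. In cells exposed to interferon, and constantly in many leukocytes, they are replaced by the products of *Psmb8*, *Psmb9* and *Psmb10*, and the resulting immunoproteasome is known for making peptides for MHC class I molecules. *Psme1* and *Psme2* encode the PA28 activator, *Psmf1* an inhibitor, and *Psmg* genes chaperones of 20S assembly.

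Upstream sequences are shown for the members that were read in more cells of one class than of the other (below), where the 250 bases before the RefSeq start overlap no annotated exon, which left 3 of the 16. They are from RefSeq (GRCm38.p6), 5′ to 3′ on the strand of the gene, with searched motifs in capitals. The genes are *Psma6* at chr12:55383972-55384221 (one of its windows, with a pair of CCAAT boxes), *Psmb6* at chr11:70525107-70525356 (with the antioxidant response element core TGACNNNGC) and *Psmd2* at chr16:20651402-20651651 (with the ETS core CCGGAAG), all on the plus strand.
Psma6: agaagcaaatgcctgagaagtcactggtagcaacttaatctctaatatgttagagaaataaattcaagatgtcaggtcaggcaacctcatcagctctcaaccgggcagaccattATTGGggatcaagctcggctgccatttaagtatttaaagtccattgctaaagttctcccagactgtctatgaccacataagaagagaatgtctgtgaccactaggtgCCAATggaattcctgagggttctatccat
Psmb6: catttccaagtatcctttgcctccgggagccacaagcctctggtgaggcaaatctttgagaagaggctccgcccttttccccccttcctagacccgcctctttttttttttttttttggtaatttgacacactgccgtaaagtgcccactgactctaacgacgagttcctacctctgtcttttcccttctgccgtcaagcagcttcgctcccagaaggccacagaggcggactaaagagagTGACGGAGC
Psmd2: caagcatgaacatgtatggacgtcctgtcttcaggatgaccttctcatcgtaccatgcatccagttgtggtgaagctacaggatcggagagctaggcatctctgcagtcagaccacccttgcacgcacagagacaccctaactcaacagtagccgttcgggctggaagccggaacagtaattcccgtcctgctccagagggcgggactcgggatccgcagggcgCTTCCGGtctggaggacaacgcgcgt

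Promoter windows of 300 bases, 250 before and 50 after the start, were found for 42 of the 50 members among 27025 genes. Those genes were not limited to protein-coding ones, as the members were. Each motif was searched on both strands. The ETS core CCGGAAG was in the windows of 15 members (35.7%) and of 9.93% of all genes. The pattern GAAANNGAA, taken from the paired sites of interferon regulatory factors, was in those of 7 members (16.7%), *Psmb3*, *Psmb4*, *Psmc2*, *Psmd4*, *Psmd9*, *Psme1* and *Psmg4*, against 9.76% of all genes. The antioxidant response element core was in 6 members (14.3%), *Psmb5*, *Psmb6*, *Psmc6*, *Psmd9*, *Psmd12* and *Psme4*, and in 14% of all genes. CCAAT was found for 15 members (35.7%) against 41.1%, and the pattern GGGANNTTC of NF-kB sites for 2 members, *Psma6* and *Psme4* (4.76%), against 4.47%. The members thus differed most from all genes in the share with an ETS core, and a match is a stretch of letters and not a measured binding site.

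Members were scattered over the genome, with 10 on chromosome 11 and 6 on chromosome 14. The catalytic genes of the constitutive core are on 3 chromosomes (GRCm38): *Psmb5* (ENSMUSG00000022193.6, chr14:54614119-54618022), *Psmb6* (ENSMUSG00000018286.6, chr11:70525367-70527858) and *Psmb7* (ENSMUSG00000026750.6, chr2:38588036-38644087). *Psmb8* (ENSMUSG00000024338.14, chr17:34197721-34201454) and *Psmb9* (ENSMUSG00000096727.2, chr17:34181987-34187764) are 9956 bases apart in the MHC region, and *Psmb10* (ENSMUSG00000031897.9) is at chr8:105935735-105938444. *Psme1* and *Psme2* are 5911 bases apart on chromosome 14. *Psmb9* overlaps *Tap1*, *Psmb8* overlaps *Gm20496* and *Psmb7* overlaps *Nek6* on the opposite strand, and without strand information in the library their shared reads cannot be told apart.

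Proteasome reads were a small and very uneven part of each cell. Together the 50 members held from 0 to 1.40% of the reads on genes of a cell, with a median of 0.204%, and 1 cell had none. The capture means at P60 ran from 0.119% to 0.394% with a median of 0.263%, and averaged 0.256% ± 0.102 (SD, n = 6). At P120 they were 0.308% in capture 28, 0.331% in 32, 0.190% in 36 and 0.166% in 38, and averaged 0.249% ± 0.0828 (SD, n = 4). The ages overlapped, and the spread over captures within an age was many times their difference. With all the deposited cells, in captures of at least 3 cells, P120 averaged 0.104 percentage points below P60, with means of 0.282% and 0.386%.

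**Figure D1:**
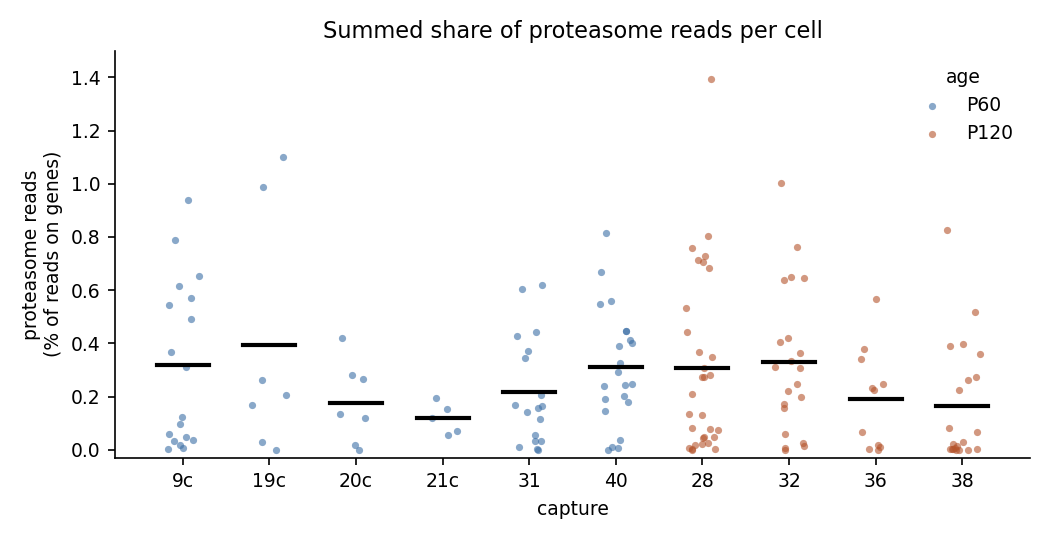
Summed reads of the 50 proteasome genes as a percent of the reads on genes, per cell (points) and capture (x axis), with P60 in blue, P120 in orange and a black line at the capture mean. The capture means lie between 0.119% and 0.394% at P60 and between 0.166% and 0.331% at P120, while single cells of one capture reach from near 0 to 1.40%.

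Few members were read in any one cell. To set the cells at 1 depth, each was thinned at random to 50000 reads, after which a cell had a read on a median of 5 members, with a range of 0 to 34 and 10 cells at 0. Without thinning the median was 10 and the range 0 to 43. The capture medians at P60 ran from 2 to 10.5 members, with a mean of 5.08 ± 3.06 (SD, n = 6). At P120 they were 12 in capture 28, 9 in 32, 1 in 36 and 2 in 38, with a mean of 6 ± 5.35 (SD, n = 4). The ages overlapped in this measure also.

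All 50 members had a read in at least 1 of the 161 cells. Before thinning, 16 members had a read in fewer than 25% of the cells and 3 in at least 50%. *Psma7*, an alpha subunit, was read in 95 cells. *Psmb11*, the catalytic subunit of the thymic proteasome, had 3 reads in 2 cells and none after thinning, where 0 of 161 cells allows a share of up to 1.86% by counting error alone. *Psma8*, the alpha subunit of germ cell proteasomes, was read in 6 cells, and 76.1% of its reads were from 1 cell of capture 9c. For 20 members a single cell held at least 25% of the reads.

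Levels between genes were compared as RPKM, the reads on a gene scaled to its exon length and to the total reads on genes, in capture sums, given as mean ± SD over 10 captures. In such sums, fewer cells with a transcript and less transcript per cell cannot be told apart. *Psmb2*, a structural beta subunit, had the highest level of the members, at 101.9 ± 83.9, with the captures between 4.69 and 264. The lowest structural beta subunit, *Psmb4*, was at 30.9 ± 47. Among the alpha subunits the highest was *Psma6* (71.1 ± 78.6) and the lowest *Psma4* (12.2 ± 13.6). For most members the SD was about as large as the mean, and 43 of 50 had at least 1 capture at 0, so neighbours in this order did not differ beyond their spread.

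On the same RPKM scale, cap and core genes overlapped. The ATPases of the cap ranged from *Psmc6* (14.9 ± 15) to *Psmc5* (40.2 ± 66.1), and the other 19S subunits from *Psmd3* (1.40 ± 3.33) to *Psmd7* (23.3 ± 35.6). The 19S assembly chaperones ranged from *Psmd9* (1.38 ± 2.15) to *Psmd10* (13.1 ± 15.6), and the 20S assembly chaperones from *Psmg2* (4.31 ± 9.06) to *Psmg3* (12.3 ± 24). Of the activators, *Psme2*, a PA28 subunit, was highest at 58.5 ± 46.9, and *Psme3*, the nuclear PA28 gamma, lowest at 7.52 ± 10.8. *Psmf1*, the PI31 inhibitor, was at 3.03 ± 5.92, *Psmc3ip* at 3.26 ± 4.52 and *Psma8* at 1.61 ± 4.55. *Psme2b* is a copy of *Psme2* without introns, and reads may be split between the pair, so its level of 10.1 ± 13 is uncertain.

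Each cutting site of the proteasome has a constitutive and an immune form, and both were compared per length within captures. For the chymotrypsin-like site, *Psmb5* levels in the P60 captures ran from 0 to 150 with a median of 20.8 RPKM, and were 27.7, 37.0, 0.246 and 66.1 RPKM in the P120 captures 28, 32, 36 and 38. *Psmb8* levels ran from 0 to 17 with a median of 4.50 RPKM at P60, and were 6.03, 36.5, 0 and 9.82 RPKM in the same P120 captures. *Psmb5* was higher in 8 of 10 captures and *Psmb8* in 2, but in captures 20c and 36 this rested on 1 and 2 reads. The log2 ratio of *Psmb8* to *Psmb5*, with a pseudocount of 1 RPKM, averaged -1.17 ± 2.61 (SD, n = 10, exact two-sided sign-flip permutation test, adjusted p = 0.533 over 3 pairs). The direction rested on the length used: with the longest coding sequence in place of the exons it was 0.04. Each form was then higher in 5 captures.

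For the caspase-like site, *Psmb6* levels ran from 0 to 81.8 RPKM with a median of 37.0 at P60 and were 59.5, 37.9, 0 and 96.1 RPKM at P120. *Psmb9* levels ran from 0 to 15.6 RPKM with a median of 4.45 at P60 and were 18, 71, 83 and 11.9 RPKM at P120. *Psmb9* exceeded *Psmb6* in captures 32 and 36, both P120, and in no P60 capture. The log2 ratio averaged -0.92 ± 3.26 (n = 10, exact sign-flip permutation test, adjusted p = 0.633), and 0.67 in the 4 P120 captures alone. One cell of capture 32 held 41.3% of all *Psmb9* reads. In capture 36, 1 of 11 cells had a *Psmb9* read after thinning.

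For the trypsin-like site, *Psmb7* reached 17.2 RPKM and *Psmb10* 16.6 RPKM in the highest P60 captures, and both were at 0 in 3 P60 captures. At P120 *Psmb7* was at 15.9, 1.21, 0 and 5.18 RPKM, and *Psmb10* at 2.94, 47.9, 0 and 0.0675 RPKM. The log2 ratio of *Psmb10* to *Psmb7* averaged -0.10 ± 1.94 (n = 10, exact sign-flip permutation test, adjusted p = 0.969), with 3 captures higher for each form. For none of the 3 sites did the forms differ beyond the spread over captures. A capture with both forms at 0 cannot move this test, so the smallest unadjusted p it allows is 0.00195 for *Psmb8* and *Psmb5*, 0.00781 for *Psmb9* and *Psmb6* (8 captures with a ratio other than 0) and 0.0313 for *Psmb10* and *Psmb7* (6 such captures).

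**Figure D2:**
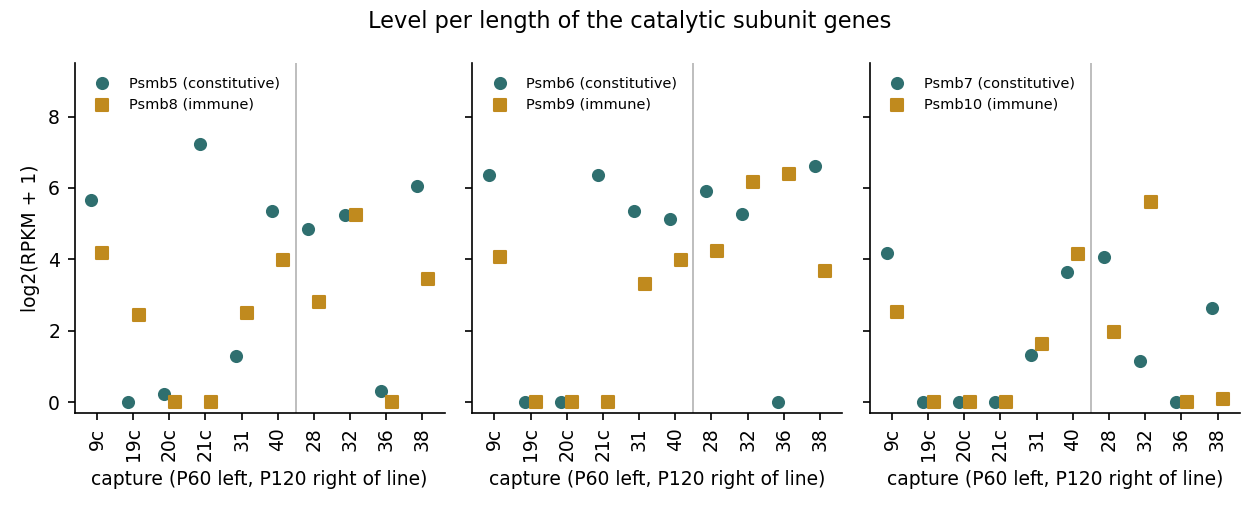
Level of each catalytic subunit gene per capture as log2(RPKM + 1), with the constitutive form as a circle and the immune form of the same site as a square, and a line between the P60 and P120 captures. *Psmb5* lies above *Psmb8* in 8 of 10 captures, in 20c and 36 by 1 and 2 reads. *Psmb9* lies above *Psmb6* in captures 32 and 36 alone, and several captures are at 0 for both forms.

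Cells also differed in which form they held. Of the 161 cells, 78 had fewer than 10 reads on the 6 catalytic genes. Among the others, 53 had reads of both forms, 17 of the constitutive form only and 13 of the immune form only. The immune share of the catalytic reads per cell, averaged by capture, was 46.1% ± 36.4 at P60 (n = 5, since capture 20c had no cell with 10 such reads) and 58.4% ± 32.6 at P120 (n = 4), with captures from 0 to 100% and overlapping ages. Without capture 36, where 1 cell sets the value of 100%, P120 was 1.59 percentage points below P60. The P60 extremes also rested on few cells, with 100% in 19c from 2 cells and 0% in 21c from 3.

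No member passed the test between the ages. Counts were summed per capture and tested over 8551 genes by the quasi-likelihood test of edgeR, with p-values adjusted after Benjamini and Hochberg over all of them. It called 0.0468% of all genes in either direction and 0 of the 48 members tested, with 0 members at an unadjusted p under 0.05. The median log2 fold change, P120 over P60, was 0.27 for the members and 0.22 for all genes, and 0.01 for both with RLE size factors. The 10 members with the smallest p-values were *Psmc5*, *Psmb9*, *Psmg3*, *Psmg2*, *Psmb4*, *Psma7*, *Psmd3*, *Psmg1*, *Psmd6* and *Psmb3*, with log2 fold changes between -2.20 and 3.84. *Psmc5*, a 19S ATPase, had a log2 fold change of 3.84 with a standard error of 1.99 (edgeR, adjusted p = 0.999), and *Psmb9* one of 3.58 with a standard error of 1.89 (adjusted p = 0.999). DESeq2 called 0.24% of genes and 0 members, with 1 at an unadjusted p under 0.05. In the captures of the run that held both ages, edgeR also called 0.

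The share of cells in which a member was read did not separate the ages either. This share, taken over the cells of a capture after thinning to 50000 reads, was tested with limma over 17124 genes. It was called for 0% of genes and for 0 of 49 members, 0 of them at an unadjusted p under 0.05, and its median difference, P120 minus P60, was 1.14 percentage points for the members and 0.433 for all genes.

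Within a capture, the members varied with the reads on genes of the primary granules. *Mpo*, *Elane*, *Prtn3* and *Ctsg* encode enzymes of the primary granules, which immature cells of the neutrophil line make. After thinning, 47 cells had a read on at least 2 of these 4 genes and are called the cells with primary granule transcripts, and the other 114 are the cells without. The class is a range and not a cell type: 86 cells had none of the genes, 28 had 1, 19 had 2, 8 had 3 and 20 had all 4. Captures with at least 3 cells in each class were compared, which were 9c, 31 and 40 at P60 and 28, 32 and 38 at P120, with 47 cells with and 84 without. No proteasome gene defines the class. Class and members were read in the same thinned reads, so the number of genes read in a cell can move both. At least 1000 genes were read in 46 of the 47 cells with and in 43 of the 114 without.

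A cell with primary granule transcripts had reads on about 5 times as many members. After thinning, the capture medians of members read per cell were 26, 30, 17, 18, 15 and 17 with primary granule transcripts in captures 9c, 31, 40, 28, 32 and 38. In the cells without, they were 5, 4, 5, 4, 3.5 and 1.5 in the same captures. The classes did not overlap, and averaged 20.5 ± 6.02 and 3.83 ± 1.29 members (SD, n = 6). Without thinning the averages were 31.3 ± 4.79 and 9 ± 3.58. The summed share of proteasome reads averaged 0.464% ± 0.0879 with and 0.203% ± 0.0685 without, and was higher with primary granule transcripts in all 6 captures.

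**Figure D3:**
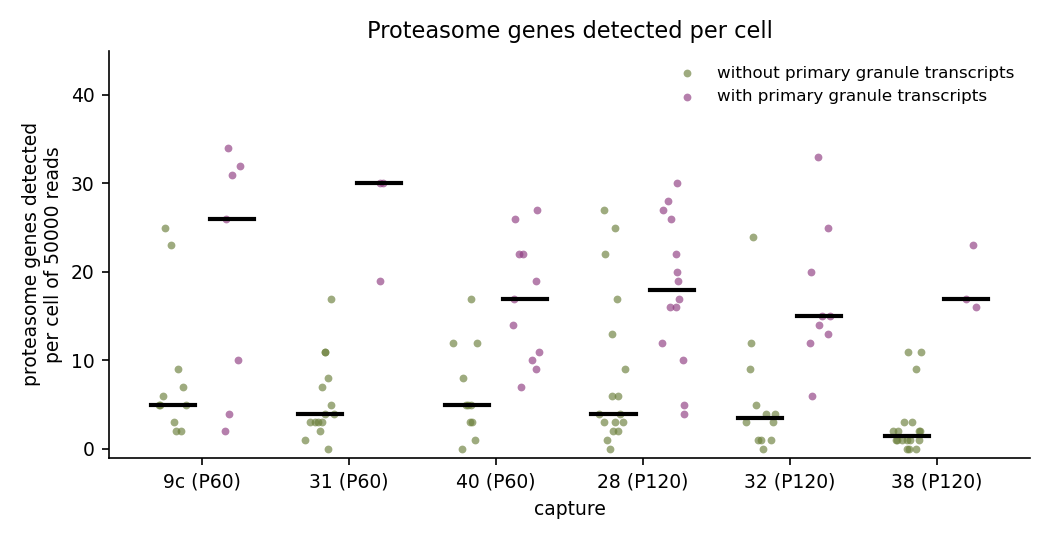
Proteasome genes with a read per cell after thinning to 50000 reads (y axis) in the 6 captures (x axis), for cells without (green) and with (purple) primary granule transcripts, with a black line at the median. The medians with are 15 to 30 and those without 1.5 to 5, and single cells of the classes overlap.

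More genes were read in these cells. The capture medians of genes per thinned cell averaged 2551 with and 990 without, so that the proteasome members were 0.821% ± 0.0707 and 0.427% ± 0.109 of the genes read in a cell. Among cells with at least 1000 genes after thinning, the median was 18 members in 46 cells with and 9 in 43 cells without, or 0.778% and 0.549% of their genes. These medians are over single cells pooled from all 10 captures, which are not replicates. The cut did not make the classes alike in genes read, with medians of 2270.5 with and 1435 without. Other measures moved with the class, and their part in the result was not tested. At least 2 of 6 cell cycle genes were read in 67.5% ± 18.6 of the cells with and 22.6% ± 14.2 of those without. The basophil list held a median of 1.84% of the reads with and 0.000826% without, but its capture values with, 4.28e-05 to 7.50%, overlapped those without. The T or NK cell list held 0.0730 to 0.160% with and 0.00575 to 0.0542% without, and the leukocyte list 0.678 to 1.03% and 1.29 to 2.17%, neither with overlap. The neutrophil list held a median of 8.50% and 20.4%, and its captures overlapped.

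The classes were then compared by the share of cells that had a read on a gene. This share, per capture and class, was compared by limma within captures over 16604 genes. Of the 49 members tested, 16 (32.7%) rose in the cells with primary granule transcripts and 0 fell, where 5.73% of all genes were called higher and 0.0964% lower. The difference was positive for 48 of 49 members against 71.4% of all genes, and its median was 28.2 percentage points against 2.65. For 20 members the share was higher with than without in every capture, which held for 8.1% of all genes. For 15 members the captures of the classes did not overlap, against 4.47% of all genes. Over the 5556 genes with a mean share above 10%, 29 of 40 members and 39.1% of all genes were called higher. Among the same genes, 39 members and 89.5% of all genes were positive, with medians of 31.3 and 17.3 percentage points. The mean was taken over both classes together, so a gene could enter only through the class where it was high. *Psmb10*, at 22.3% with and 3.88% without, is such a gene, so these higher shares are no separate support.

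Most of the called members belonged to the 20S core, and the role groups were not tested against each other. Of its 11 alpha and structural beta subunits other than *Psma8*, 10 rose: *Psma2* to *Psma7* and *Psmb1* to *Psmb4*. *Psma7* was read in 71.4% to 100% of the cells with primary granule transcripts, with a median of 87.3%, and in 11.1% to 41.7% of those without, with a median of 23.6%. No capture of one class reached the range of the other, and the difference was 62.4 points with a standard error of 8.73 (limma, adjusted p = 0.00336). *Psma2* was read in 79% ± 19.5 and 22.8% ± 11.6 of the cells (limma, adjusted p = 0.00523). *Psmb1*, which encodes a structural beta subunit, was read in 81.4% ± 16.7 and 25.5% ± 11.4 (adjusted p = 0.00476). *Psma1* was the core member outside the call, at 51.7% ± 32.1 and 23.3% ± 10.8 (limma, adjusted p = 0.15).

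Fewer cap genes passed. Of the 6 ATPases of the 19S base, *Psmc1*, *Psmc3* and *Psmc5* rose. *Psmc5* was read in 22.2% to 100% of the cells with primary granule transcripts and in 0 to 9.09% of those without. Of the 11 other 19S subunits, *Psmd1* and *Psmd2*, the large scaffold subunits, rose, at 44.4% ± 26.2 against 6.49% ± 6.58 and 46.6% ± 18.6 against 14.6% ± 11.3. *Psmd12*, a lid subunit, was the one member with a lower mean share in the cells with, at 19.4% ± 11.7 against 22.6% ± 20.8 (limma, adjusted p = 0.793). After thinning, *Psma8* and *Psmc3ip* were read in no cell without primary granule transcripts, where they had at most 3 reads in a capture before thinning, and in 6.94% ± 5.87 and 10.6% ± 12.4 of those with (limma, adjusted p = 0.259 and 0.268). *Psmb11* was not tested, having no read after thinning. None of the 7 assembly chaperones, the 5 activators or *Psmf1* passed the test. *Psme1* was nearest among the activators, at 57.6% ± 25.4 against 22.8% ± 9.15 (limma, adjusted p = 0.0535).

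**Figure D4:**
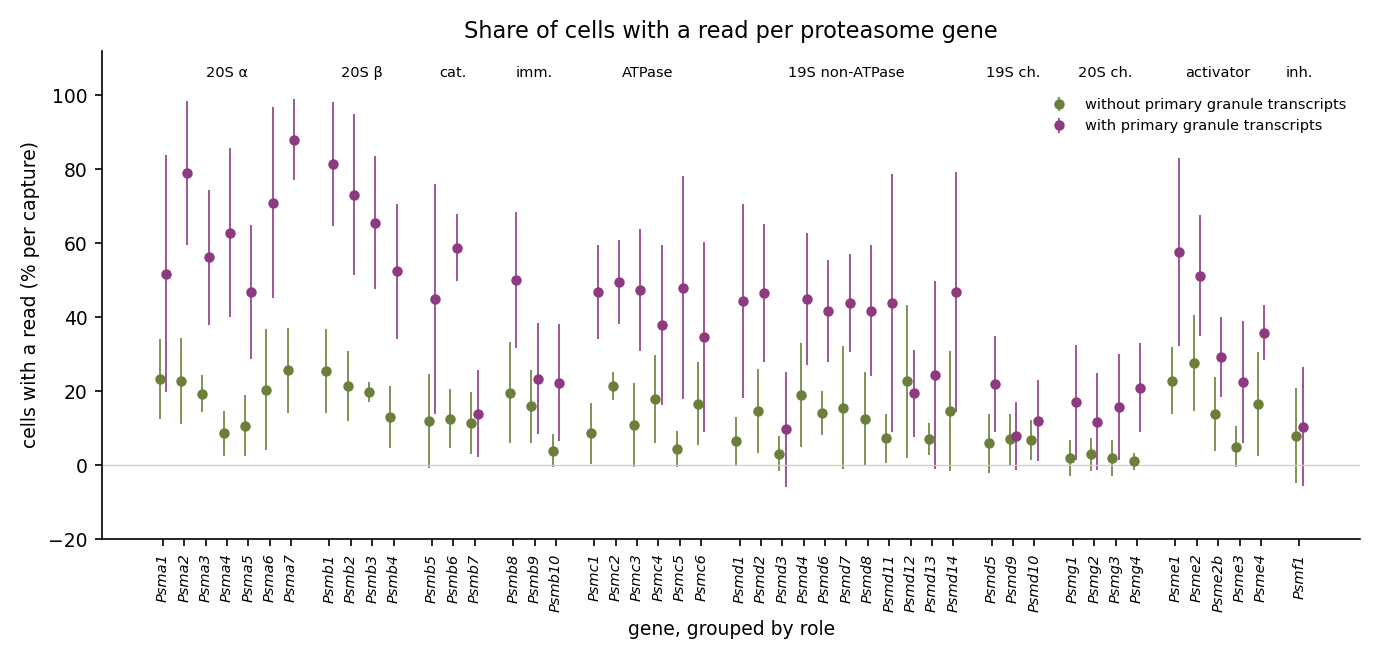
Share of cells with a read (y axis, percent of the thinned cells of a capture) for 47 members grouped by role, as mean ± SD over 6 captures, with (purple) and without (green) primary granule transcripts. The groups are 20S alpha, 20S structural beta, constitutive catalytic (cat.), immune catalytic (imm.), 19S ATPases, other 19S subunits, 19S and 20S assembly chaperones (ch.), activators and the inhibitor (inh.), and *Psma8*, *Psmb11* and *Psmc3ip* are not drawn. The purple points lie highest for the 20S core, where *Psma7* reaches 88%, and *Psmd12* is the one gene with purple below green.

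Of the 6 catalytic genes, *Psmb6* was the one that rose. It was read in 42.9% to 66.7% of the cells with primary granule transcripts, with a median of 60.4%, and in 0 to 23.5% of those without, with a median of 12.2%. The classes did not overlap, and the difference was 46.2 points with a standard error of 8.69 (limma, adjusted p = 0.0064). *Psmb5* was at 44.9% ± 31.1 and 11.9% ± 12.7 (adjusted p = 0.126), and *Psmb7* at 13.9% ± 11.7 and 11.4% ± 8.38 (adjusted p = 0.799). Of the immune forms, *Psmb8* was at 50.1% ± 18.3 and 19.6% ± 13.7 (limma, adjusted p = 0.102), *Psmb9* at 23.3% ± 15 and 15.9% ± 9.81 (adjusted p = 0.538), and *Psmb10* at 22.3% ± 15.9 and 3.88% ± 4.39 (adjusted p = 0.144).

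Whether the forms of a site shifted alike was tested from the difference of the differences within each capture. That of *Psmb6* exceeded that of *Psmb9* by 38.8 ± 20.3 points, in 6 of 6 captures (exact two-sided sign-flip permutation test, p = 0.0313, adjusted p = 0.0469 over 3 pairs). That of *Psmb7* was below that of *Psmb10* by a mean of -15.9 ± 12.8 points, with *Psmb10* ahead in 6 of 6 captures (exact permutation test, adjusted p = 0.0469). The p of 0.0313 is the smallest that 6 captures allow. Neither adjusted p stayed under 0.05 in any of the other 7 choices of cells or classes, or with a capture left out. Of the 7 choices, 3 left 4 captures, where the smallest p is 0.125. Neither these 3 nor the settings with a capture left out could pass, whatever their values. *Psmb5* and *Psmb8* differed by 2.55 ± 34.5 points (exact permutation test, adjusted p = 0.938). The immune share of the catalytic reads per cell averaged 39.7% ± 11.5 with and 50.4% ± 25.1 without primary granule transcripts, and overlapped.

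The calls in the share of cells depended on which cells were compared. With cells of at least 1000 genes alone, 0 of 49 members and 0.00631% of all genes were called higher, and 44 members had a positive difference against 66.6% of all genes. The median difference was then 15.4 percentage points for the members and 2.07 for all genes. Without cells with at least 2 cell cycle genes, which left 4 captures, 0 of 48 members and 0.153% of all genes were called higher, and 46 members were positive against 70.2% of all genes. The median difference in that case was 21.9 percentage points for the members and 5 for all genes. Counting as positive a cell with 1 of the 4 granule genes gave 0 calls, with 0.012% of all genes called, while at least 3 of the 4 gave 16, with 6.12% of all genes. Without capture 31, which had 3 cells with primary granule transcripts, 9 members and 3.92% of all genes were called.

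The summed counts gave no calls for the same cells. In edgeR, again with captures as blocks and over 7230 genes, 0 of 44 members passed, where 0.277% of all genes were called higher and 0.788% lower, and 3 members had an unadjusted p under 0.05. The log2 fold change was positive for 35 of 44 members and 55.6% of all genes, with a median of 1 against 0.36 for all genes. The 3 were *Psmg4*, *Psmd3* and *Psmd5*, with fitted log2 fold changes of 7.24, 6.42 and 4.98. In the cells without, *Psmg4* had 0 to 33 reads in a capture and *Psmd3* 0 to 15, while *Psmd5* had 424 in capture 31 and 0 to 26 in each of the others. The next 7 by p were *Psmc5*, *Psmd2*, *Psmg2*, *Psma4*, *Psmb10*, *Psma2* and *Psmd10*. DESeq2 called 10 of 44 members higher, a share close to the 20.5% of all genes that it called. An interaction term of class and age was called for 0 of the 44 members and 0.0138% of all genes (edgeR). The terms ran from -7.47 for *Psmb10* (standard error 4.77) to 6.97 for *Psmd9* (7.24). With such errors the test cannot show that the class difference was alike at both ages.

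Other genes of the pathway, from a list of 36 in the table, were set beside the members. By the share of cells, 5 of 36 (13.9%) rose in the cells with primary granule transcripts and 0 fell, beside 5.73% and 0.0964% of all genes. They were *Rps27a*, which encodes ubiquitin fused to a ribosomal protein (48.4 points, limma, adjusted p = 0.00388), *H2-K1*, an MHC class I heavy chain (43.6 points, 0.00409), *Vcp*, the segregase that unfolds ubiquitinated proteins (36.1 points, 0.0163), *Uchl5*, a deubiquitinase of the 19S cap (35.6 points, 0.0218) and *Ubqln4*, a shuttle to the proteasome (25.3 points, 0.026). None of the 5 passed with cells of at least 1000 genes alone, where *Rps27a* differed by 21 points (limma, adjusted p = 0.521) and *Vcp* by 28.2 points (0.424), nor without cells with cell cycle transcripts. Of the 4 genes of transcription control, *Nfe2l1*, *Nfe2l2*, *Ddi2* and *Ngly1*, 0 passed. In the summed counts 0 of 33 tested genes passed by edgeR, and *B2m* and *H2-D1* had log2 fold changes of -1.32 and -1.36 (adjusted p = 0.164 and 0.158). Between the ages, 0 passed in either measure.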

How the data were processed

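Fluidigm C1 libraries of single GFP-positive cells were sequenced by the authors, aligned with STAR to GRCm38 and counted per gene with the vM11 annotation, after removal of endothelial cells and outliers. The authors deposited raw read counts per gene and cell, not normalized, together with each cell's age, capture and sequencing run. Other deposited values of the cells, uniquely mapped reads (counts) and a GFP intensity score, were not used here. Symbols, types, lengths and positions were taken from GENCODE vM21 on the same build, and 48349 of 48709 identifiers matched. Spike-in sequences were left out, and no doublet caller was run.

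The members, gene lists and tests were chosen with earlier results of these data known. Counts were summed over the cells of a capture and tested with edgeR 4.0.16 (TMM scaling, the filterByExpr minimum, quasi-likelihood tests and a Benjamini-Hochberg threshold of 0.05), with DESeq2 1.42.0 as another tool. Cells were thinned to 50000 reads with a fixed seed. The share of cells with a read was tested with limma 3.58.1 (trend, capture as a block for the class). That test, the test between the forms of a site and their alternatives were added after the count tests were seen. Pairs of genes were compared with exact sign-flip permutation tests. R 4.3.3, Python 3.11.15, pandas 2.3.3, numpy 2.4.6, scipy 1.17.1 and matplotlib 3.10.9 were used.

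Named with values were the 6 catalytic genes, the highest and lowest member of each role by level, members past the threshold or else the 10 with the smallest p, and at most 10 pathway genes past the threshold. Other members named were chosen after their values were seen. Totals per used capture ran from 4671200 to 44117830 reads, and floors cover counting error only, since reads without molecular identifiers are not independent molecules. The classes share captures, so the capture was the block by design.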

Additional observations from a re-analysis of the deposited data

Results flagged for a closer look

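Of 24 groups of captures tested for a single capture that stands apart, 4 were marked, where chance marks about 1 in 20. *Psmb5* at P60 was highest in capture 21c, at 134.9 CPM (counts scaled to the total reads on genes), where the SC list was also highest, at 1.46% of the reads. *Psmb10* was highest at P60 in capture 40, at 28.4 CPM, and at P120 in capture 32, at 81.7 CPM. In the cells without primary granule transcripts, the immune share of the catalytic reads was highest in capture 32, at 98.2% over 4 cells, and the other 5 captures lay between 28.7% and 52%. The cause was not tested for any of these.

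The 50 cells that were not used also held proteasome reads, at 29907 of 3891013 reads or 0.769%, with a read in 40 of the 50 cells. These reads were not compared between groups.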

How the results depend on the processing

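Between the ages, 0 members were called under every alternative run for either test, capture left out or not. In the summed counts between the classes, 0 were called under every edgeR alternative, without the replicate block (0) and with a capture left out (0 to 0), and 10 with DESeq2. By share of cells, 16 were called (5.73% of all genes), 23 without the replicate block (7.91%), 26 with the class set from 10 deposited reads (9.99%), 29 of 40 over genes in at least 10% of cells (39.1%), 13 with at least 2 reads (4.28%), 21 with another thinning (7.51%), and 0 with 1 of the 4 genes, with at least 1000 genes per cell or without cycling cells. With each capture left out, 9 to 17 were called (3.42% to 6.61% of all genes). The difference between the forms of a site kept its direction for *Psmb6* minus *Psmb9* and for *Psmb7* minus *Psmb10*, but passed under no alternative: for the first it was 27.5 points with another thinning, 22.2 with 1 of the 4 genes, 36.6 with 10 deposited reads, 37.7 with at least 2 reads, 43.5 with 3 of the 4 genes, 29.2 with at least 1000 genes and 30.8 without cycling cells, and for the second -15.4, -7.23, -15.0, -18.3, -16.0, -23.1 and -27.6 in the same order. With a capture left out, where 0.0625 is the smallest p, they were 33.2 to 45.5 and -18.5 to -11.1. Another thinning, 3 of the 4 genes and the cells without cycling cells left 4 captures, where 0.125 is the smallest p. *Psmb5* minus *Psmb8* changed sign, at -0.0427 with another thinning, -5.37 with 1 of the 4 genes, -0.85 with 10 deposited reads, -14.0 with at least 2 reads, -4.30 with 3 of the 4 genes and -21.3 without cycling cells, and -7.08 to 12.1 with a capture left out (-3.61 without 38). The cause was not tested.

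The per-length ratio of *Psmb10* to *Psmb7* turned positive in thinned cells (0.0646), with a pseudocount of 10 (0.0269) and without captures 9c (0.07), 28 (0.12) or 38 (0.17), with a range of -0.61 to 0.17 over the captures left out. *Psmb8* to *Psmb5* was 0.0376 with the coding length and -1.57 to -0.50 with a capture left out, and *Psmb9* to *Psmb6* was 0.67 in P120 alone and -1.73 to -0.31 with a capture left out. The difference of the summed share between the ages was -0.104 percentage points with all the deposited cells and -0.0342 to 0.0208 with a capture left out. That of the immune share was -1.59 to 25.7 points, and that of the members per cell -1.08 to 2.58. Of single genes, the log2 fold change between the ages turned for *Psmb4* without capture 19c (-2.21 to 0.21 over the captures left out), *Psmg1* without 28 (-5.63 to 2.37) and *Psmg3* without 36 (-1.64 to 4.73). Between the classes *Psmd10* turned with 3 of the 4 genes (-0.76, and -0.19 when also thinned), *Psmb7* in share of cells with at least 2 reads (-1.76 points), at least 1000 genes (-10.6) and without 32 (-1.51 to 5.16 over the captures left out), and *Psmb9* with 1 of the 4 genes (-0.264). Few captures, with 5 to 31 cells in each and 3 to 18 in each class, limit what these tests can call.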
